A study of Mus musculus with 20 samples.

Results

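Umps and Aprt encode enzymes of nucleotide metabolism. They were selected by the symbols of the array probes, after both genes had been chosen on their log2 ratios over the time points of this series, so the values of both are a description and carry no test. Both of the 2 genes were found, among 13406 named genes on the arrays, and they had 3 of the 17280 probes. Umps had 2 probes and Aprt had 1. Each array compared RNA of Hepa1-6 cells, a mouse hepatoma line grown to confluence, from flasks with varied glutamine (Cy5, channel 1) with RNA from flasks with constant glutamine (Cy3). The varied flasks received medium without glutamine (0 mM) at the start and after 48 h, and medium with 4 mM glutamine after 24 h and 72 h. The constant flasks received 4 mM at each of these exchanges, and all flasks had 25 mM glucose throughout the 96 h. There were 20 arrays for 11 time points, known by number: 9 time points had 2 arrays, the second of them marked r, and time points 5 and 11 had 1. Neither an hour nor a glutamine level is attached to a time point in the labels, so no glutamine level is attached to any value here, and nothing says whether an r array came from another flask. For the first array of time point 4 the channel of the constant flasks is labelled as cells without glutamine.

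A cell obtains pyrimidine nucleotides by building the ring anew or by recovering nucleosides. In the new synthesis Cad takes nitrogen from glutamine and forms dihydroorotate, Dhodh oxidises it to orotate, and Umps, the uridine monophosphate synthase, attaches orotate to phosphoribosyl pyrophosphate and removes a carboxyl group to give UMP. Aprt, the adenine phosphoribosyltransferase, uses the same phosphoribosyl pyrophosphate to turn free adenine, chiefly a by-product of polyamine synthesis, into AMP. Umps thus belongs to a route that starts from glutamine, whereas Aprt recovers a ready base.

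Both genes are given in the RefSeq annotation of the GRCm38.p6 assembly. Umps lies on the minus strand of chromosome 16 between 33954782 and 33967038, and Aprt on the minus strand of chromosome 8 between 122574637 and 122576907. An Aprt pseudogene, Aprt-ps, is annotated elsewhere on chromosome 8 (71223915 to 71224450), and binding of its transcripts to the Aprt probe was not tested. The windows from 250 bases before to 50 bases after the start of each gene are shown 5′ to 3′ because both ratios lay similarly far below the array median. Capitals mark matches, on either strand, to the letters of the GC box (GGGCGG), the CCAAT box (CCAAT), the E-box (CACGTG), the cyclic AMP response element (TGACGTCA), the TATA box (TATAAA) and the amino acid response element (TGATGCAA). The motifs were picked with the windows in view. The Umps window is chr16:33966989-33967288 and the Aprt window is chr8:122576858-122577157.
Umps: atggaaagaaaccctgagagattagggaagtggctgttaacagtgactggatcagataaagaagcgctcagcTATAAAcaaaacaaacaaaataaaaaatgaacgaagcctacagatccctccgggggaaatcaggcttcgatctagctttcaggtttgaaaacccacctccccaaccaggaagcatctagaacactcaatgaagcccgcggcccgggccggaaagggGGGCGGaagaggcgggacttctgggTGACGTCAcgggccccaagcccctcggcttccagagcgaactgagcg
Aprt: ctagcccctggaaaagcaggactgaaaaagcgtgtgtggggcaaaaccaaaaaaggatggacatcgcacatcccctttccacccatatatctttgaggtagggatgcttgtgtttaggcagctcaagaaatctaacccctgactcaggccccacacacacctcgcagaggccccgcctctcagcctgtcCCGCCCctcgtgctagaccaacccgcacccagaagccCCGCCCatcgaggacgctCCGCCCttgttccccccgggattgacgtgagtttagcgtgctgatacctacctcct

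The Umps window holds 1 GC box, 1 cyclic AMP response element, which starts 3 bases after the first base of the gene, and 1 match to the TATA letters, far upstream of the start. The Aprt window holds 3 GC boxes, all on the opposite strand, and no other of these motifs. GC box letters occur in 35.7% of the 32851 windows in the RefSeq table, TATA letters in 13.6% and the cyclic AMP response element in 1.8%. Neither window holds the CCAAT box (37.4% of windows), the E-box (7.2%) or the amino acid response element (0.9%). No matches overlapped within either window. These matches describe letters only, and no binding was measured.

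The values are log ratios of both channels, taken as log2. The labels state neither their scale nor their direction, so base 2 is an assumption. A positive value likely means a higher level in the varied flasks, because channel 1 holds their RNA on every array. The medians of the 20 arrays as deposited lay between 0.05 and 0.435, and each array was centred on its median, so every centred value is relative to the median probe. An array gave 4269 to 8269 values. Why a spot was left blank is not stated. No array had swapped dyes, so a dye bias of a probe and a steady difference between flasks cannot be told apart. Spots at every 20th probe number, counted from the first, had a median of 2.72 on the array of time point 5 and 1.28 on the first of time point 6, whereas on the other 18 arrays this median lay between -0.095 and 0.08. They are called raised positions here, and neither Umps nor Aprt has a spot there. The r arrays of time points 6 and 10 correlated with the mean of the other arrays at 0.04 and -0.0016, against 0.29 to 0.60 for the other 18 arrays, and gave no value for either gene. In RNA of whole flasks, fewer cells with a transcript and less of it per cell cannot be told apart.

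Umps was below the median probe on 13 of the 15 arrays that gave a value. All values came from 1 probe, and its other probe, with 0 values, was blank throughout. At time point 1 the centred log2 ratios were -0.23 on the first array and 0.09 on the r array, and at time point 2 they were -0.07 and -0.43. The 4 values thus held both the highest of all Umps values, 0.09, and the second lowest. At time point 4 the arrays gave -0.435 and -0.23, and at time point 9 they gave -0.14 and -0.26. The lowest Umps value, -0.435, came from the array whose channel of the constant flasks is labelled as cells without glutamine. Time points 3, 5 and 6 had 1 value each, at -0.31, -0.07 and 0.01. Time points 7 and 8 stood at -0.30 and -0.26, and time points 10 and 11 at -0.39 and -0.28. In the time-point means Umps was therefore nearest the median probe at time points 1, 5 and 6 (-0.07, -0.07 and 0.01). It was lower at time points 2 to 4 and 7 to 11. The values at time points 5 and 6 came from the arrays with high raised positions, where Umps has no spot. High values were not confined to such spots, since Ctps2, which has none there, stood at 3.05 at time point 5. Other genes without such a spot, such as Upb1 (-0.32), were negative at that time point. Whether Umps was affected on these arrays was not tested. Umps had a value on all 11 first arrays and on 4 of the 9 r arrays.

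Over the 11 time-point means Umps averaged -0.22 ± 0.13 (SD, n = 11), which in base 2 and the likely direction is 0.857 times the level in the constant flasks relative to the median probe, or 1.17 times with the direction turned. The mean was negative at 10 of 11 time points and ranged between -0.39 (time point 10) and 0.01 (time point 6). In order of the time-point means, time points 10, 4, 3 and 7 were lowest, followed by 11, 8, 2 and 9, and time points 1, 5 and 6 were highest. Among the 3031 genes measured at all 11 time points, 5.38% were negative at 10 or more. In this and the later totals over all genes, a probe without a gene symbol counts as a gene. The Umps mean was higher than that of 10.8% of the 4752 genes measured at 9 or more time points. On single arrays, between 6.80% and 61.1% of the genes with a value lay lower than Umps, with a median of 23.3%. The values therefore placed Umps low on most arrays and never among the very lowest.

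The order of the time points for Umps was not resolved by the repeats. The 4 pairs of arrays differed by 0.12 to 0.36 in log2 ratio, which corresponds to a standard deviation of 0.19 between arrays of 1 time point. The standard deviation over the time-point means was smaller, at 0.13. The whole range of the time-point means, 0.40, was close to the largest difference within a pair. Neighbours in the order given above therefore did not differ beyond the spread between arrays. At time point 2 the pair differed by more than did 85.6% of all genes, and at time point 9 by more than did 32.7%.

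Aprt was below the median probe on 8 of the 9 arrays that gave a value. The first 3 time points had -0.25, -0.58 and -0.37, each from the first array. Time point 4 had -0.33 from its r array. Time points 5, 6 and 7 had -0.06, -0.33 and -0.24. Time point 10 had 0.22 and time point 11 had -0.08, while time points 8 and 9 had no value. Aprt was thus lowest at time point 2 and above the median probe at time point 10 alone. It had a value on 8 of 11 first arrays and on 1 of 9 r arrays, and r arrays gave fewer values in general (median 5243, against 6082 on first arrays).

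Over its 9 time points Aprt averaged -0.22 ± 0.23 (SD, n = 9), which on the same reading is 0.856 times the level in the constant flasks relative to the median probe, or 1.17 times with the direction turned. The mean was higher than that of 10.7% of the 4752 genes. Of the 720 genes with values at 9 time points, 18.6% were negative at 8 or more. Between 1.93% and 70.7% of the genes on an array lay lower than Aprt, with a median of 21.5%. The range of its time-point values, 0.80, was wider than that of Umps. No time point had Aprt on both arrays, so the spread between arrays is unknown for this gene, and no order of its time points was resolved. Across all genes the median difference between the arrays of 1 time point was between 0.16 and 0.49.

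**Figure D1:**
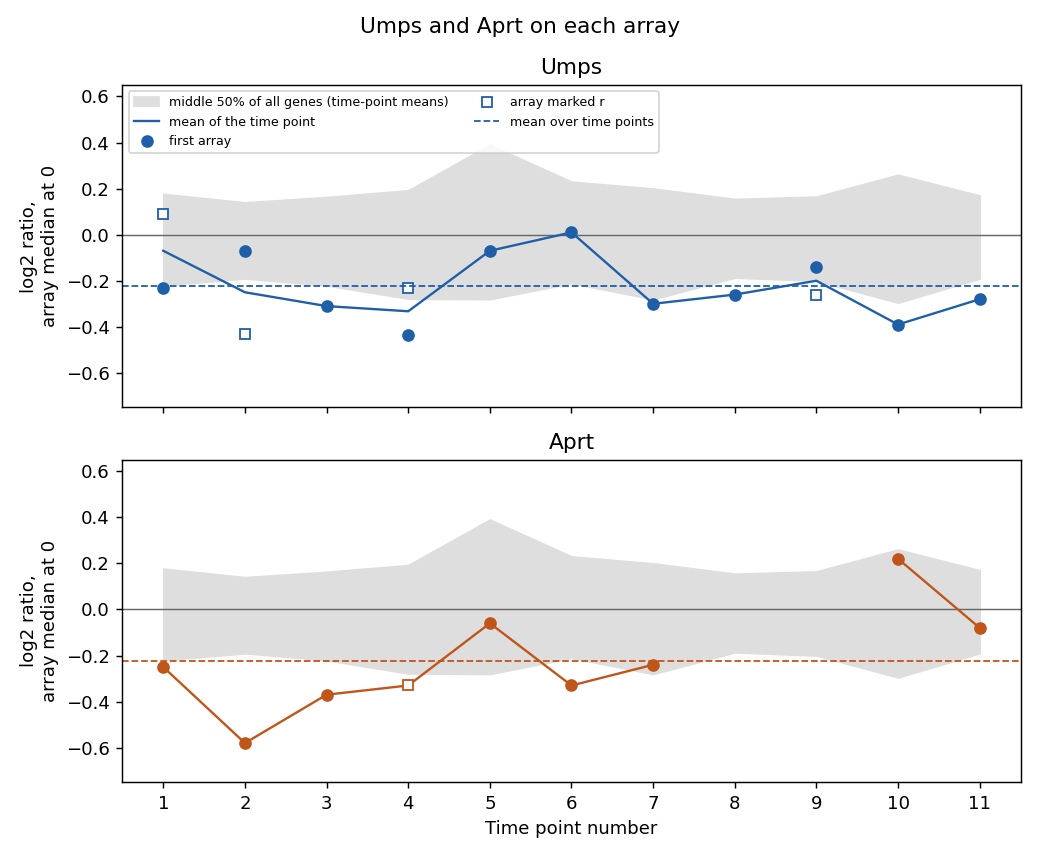
Centred log2 ratio (varied over constant glutamine, likely direction) of Umps (top) and Aprt (bottom) by time point number. Filled circles are first arrays, open squares arrays marked r, the line joins time-point means, the dashed line is the mean over time points and the grey band holds the middle 50% of all genes. Umps lies at or below 0.01 at every time-point mean, and Aprt lies above 0 at time point 10 (0.22) only.

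The sign of both means depended on where 0 was set. As deposited, without centring, Umps averaged 0.03 ± 0.12 (SD, n = 11) and Aprt 0.00444 ± 0.214 (SD, n = 9). On that scale 9 Umps values were above 0, 5 were below and 1 was exactly 0, and 5 Aprt values were above 0 and 4 below. The place among other genes hardly moved, since 10.9% of genes had a lower deposited mean than Umps and 8.48% a lower one than Aprt. Both transcripts therefore had low ratios compared with other genes on the array, and the deposited ratios themselves were near 0. With each block of 540 consecutive probe numbers centred apart, the means were -0.20 ± 0.17 for Umps (SD, n = 11) and -0.19 ± 0.19 for Aprt (SD, n = 9). The set of 18 arrays without the second arrays of time points 6 and 10 and without the raised spots gave -0.22 ± 0.14 (SD, n = 11) and -0.21 ± 0.23 (SD, n = 9).

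**Figure D2:**
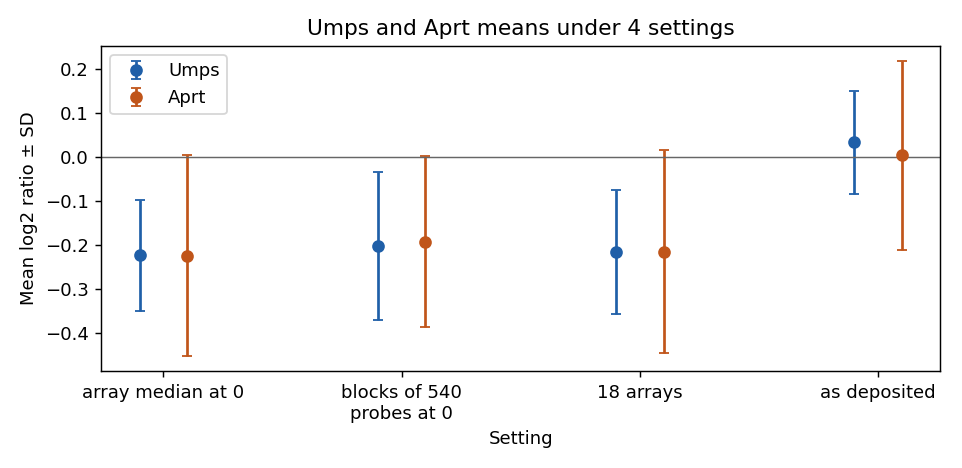
Mean log2 ratio over time points of Umps (n = 11) and Aprt (n = 9) under 4 settings, with bars of 1 SD. Both means lie near -0.2 under the 3 centred settings and near 0 as deposited.

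The difference between the genes on 1 array does not depend on the centring of whole arrays. Umps and Aprt both had a value on 9 arrays, where Umps averaged -0.21 ± 0.13 and Aprt -0.22 ± 0.23 (SD, n = 9 each). Umps minus Aprt averaged 0.02 ± 0.32 (SD, n = 9), and it was positive on 5 arrays and negative on 4. The first array of time point 2 gave the highest difference, 0.51, with Umps at -0.07 and Aprt at -0.58. Time point 6 followed with 0.34. The lowest difference, -0.61, came from the first array of time point 10, with Umps at -0.39 and Aprt at 0.22, and time point 11 gave -0.20. The other 5 arrays lay between -0.06 and 0.10. The genes thus had means close to each other and parted on single arrays in both directions.

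Across these 9 arrays the genes had a Pearson correlation of -0.50 and a Spearman correlation of -0.33. Pearson's r was -0.21 without the array of time point 10 (n = 8). Umps was farthest from its median at time point 6, and the arrays of time points 2, 5 and 10 were next at equal distance. Without time point 6 and 1 of these, r was -0.22, -0.83 and -0.18 in that order (n = 7), so its size changed with the array left out. Over the time-point means, where Umps is averaged over 2 arrays at time points 1, 2 and 4, r was -0.20, and it was 0.21 without time point 10. These correlations are descriptions, since both values come from the same array and share its centring.

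**Figure D3:**
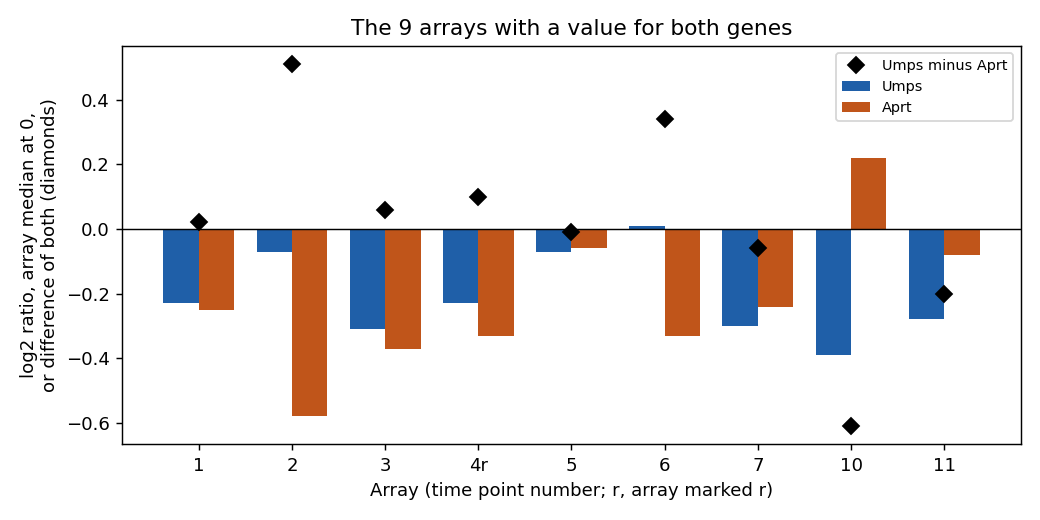
Umps and Aprt on the 9 arrays that gave both, as bars of the centred log2 ratio, with diamonds for Umps minus Aprt on the same array. The diamonds run between 0.51 (time point 2) and -0.61 (time point 10) and lie close to 0 on most other arrays.

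The other genes of nucleotide metabolism were taken from 9 lists with 91 genes, of which 74 had a probe, 65 had a value and 27, Umps and Aprt included, were measured at 9 or more time points. The mean over time points of the other 25 was tested against 0 with limma on the whole table, with Benjamini-Hochberg adjustment over 4752 genes. Of these 25 genes 3 were called lower and 3 higher, which is 12% each way. As no array had swapped dyes, a call cannot be told apart from a dye bias of the probe. Over all genes 9.05% were called lower and 13.6% higher, so neither count stands apart from the background. The median of the 25 means was 0.01, against 0.02 over all genes tested. Without centring limma called 0 of the 25 lower and 11 higher, and also at an unadjusted p under 0.05 none was lower (0 genes). Over all 4752 genes 46 were called lower and 2849 higher without centring, so a higher call on that scale was not particular to these genes.

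The other steps of new pyrimidine synthesis were too seldom measured for a test. Cad, which starts the route with glutamine, had a value on 1 array (0.41), and Dhodh had no value from either of its probes. The CTP synthases, which also take nitrogen from glutamine, had values at 7 time points (Ctps1, listed on the array as Ctps) and at 6 (Ctps2). Both were highest at time point 5, at 2.67 and 3.05, and Ctps1 has its spot at a raised position while Ctps2 does not. Umps was hence the one step of this route with a full time course.

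In pyrimidine salvage and breakdown limma called 3 of 8 measured genes higher and none lower, against 13.6% of all genes called higher and 9.05% called lower. At an unadjusted p under 0.05, 1 gene of this list was lower. Upp1, the uridine phosphorylase that splits uridine into uracil and ribose phosphate, averaged 0.27 ± 0.11 (SD, n = 11, adjusted p 0.00150) and was positive at 11 time points. Upb1, the beta-ureidopropionase that ends pyrimidine breakdown, averaged 0.32 ± 0.28 (SD, n = 11, adjusted p 0.0140). Dpys, the dihydropyrimidinase of the step before, averaged 0.19 ± 0.19 (SD, n = 11, adjusted p 0.0360). The Upp1 call was kept whichever array or time point was left out. Upb1 lost its call without the first array of time point 10 (adjusted p 0.169). Dpys lost it in 4 of 20 omissions of 1 array (time point 5, the r arrays of time points 6 and 7, and the first of time point 10) and in 6 of 11 omissions of 1 time point (1 to 6), with an adjusted p of up to 0.0782. Among genes that did not pass, the uridine kinase Uck2 averaged -0.20 ± 0.22 (SD, n = 10, adjusted p 0.0565), and in the set of 18 arrays its adjusted p was 0.0430. Its probes differed, at -0.02 on 7 arrays and -0.24 on 13. Uck2 was singled out after its value was seen, and its mean as deposited was 0.03.

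In purine salvage and breakdown limma called 2 of the 8 measured genes other than Aprt lower and none higher. Of all genes 9.05% were called lower and 13.6% higher. At an unadjusted p under 0.05, 1 gene of this list was higher. The gene higher at the unadjusted p was Xdh, the xanthine oxidoreductase that makes urate, at 0.19 ± 0.21 (SD, n = 11, adjusted p 0.0527), which passed in the set of 18 arrays (adjusted p 0.0104) and was picked out after its value was seen. Its probes differed in sign, at 0.23 on 19 arrays and -0.29 on 3. Nt5c3, a cytosolic nucleotidase that removes the phosphate of pyrimidine monophosphates, averaged -0.37 ± 0.29 (SD, n = 11, adjusted p 0.00839). Its probes agreed, at -0.41 and -0.37, its call was kept in every omission of 1 array or time point, and its mean as deposited was -0.12. Nt5m, a mitochondrial deoxyribonucleotidase, averaged -0.17 ± 0.16 (SD, n = 11, adjusted p 0.0375), but was called neither in the set of 18 arrays (adjusted p 0.0806) nor in 7 of the 20 omissions of 1 array, those of the first arrays of time points 1, 5, 6, 7 and 10 and the r arrays of 2 and 10. It was also lost in 8 of 11 omissions of 1 time point, and its mean as deposited was 0.08. Both called members remove phosphate from nucleotides and neither salvages a purine base. Nt5c3, with its pyrimidine substrates, could as well stand in the pyrimidine list, so the counts of both lists depend on where it is placed. Genes closest to Aprt, chosen after their values were seen, included Mtap, which releases the adenine that Aprt uses, at -0.20 ± 0.19 (SD, n = 9, adjusted p 0.0526, and 0.0409 in the set of 18 arrays). The Mtap mean as deposited was 0.07. Hprt, the salvage enzyme for hypoxanthine and guanine, had values at 5 time points, all negative, with a mean of -0.33 ± 0.25 (SD).

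The remaining lists had few measured members. Of the 3 measured nucleotide kinases 1 was called lower by limma, against 9.05% of all genes called lower. It was Ak4, a mitochondrial adenylate kinase, at -0.46 ± 0.34 (SD, n = 9, adjusted p 0.0117), positive at time point 5 alone (0.19). No omission of 1 array that left it testable ended its call (without 4 of the 20 arrays it was not testable), and its mean as deposited was -0.17. Among omissions of 1 time point Ak4 was testable only without time points 9 or 11, where it had no value. Its limma adjusted p was then 0.0148 and 0.0138, so its call was not checked against the loss of a time point with a value. Atic, which closes the purine ring, was the 1 gene of new purine synthesis measured often enough, at 0.08 ± 0.26 (SD, n = 10, adjusted p 0.496). Prpsap1, a partner of the enzyme that makes phosphoribosyl pyrophosphate, averaged -0.09 ± 0.23 (SD, n = 11, adjusted p 0.368). Shmt1, a folate enzyme that draws carbon units from serine, averaged 0.28 ± 0.49 (SD, n = 11, adjusted p 0.147). Rrm1, the large subunit of ribonucleotide reductase, averaged 0.55 ± 0.93 (SD, n = 9, adjusted p 0.161). In the polyamine route, Srm averaged 0.50 ± 1.09 (SD, n = 9, adjusted p 0.274) and Odc1 0.10 ± 0.32 (SD, n = 11, adjusted p 0.440). Rrm1 and Srm had spots at raised positions and stood at 2.90 and 3.32 at time point 5.

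**Figure D4:**
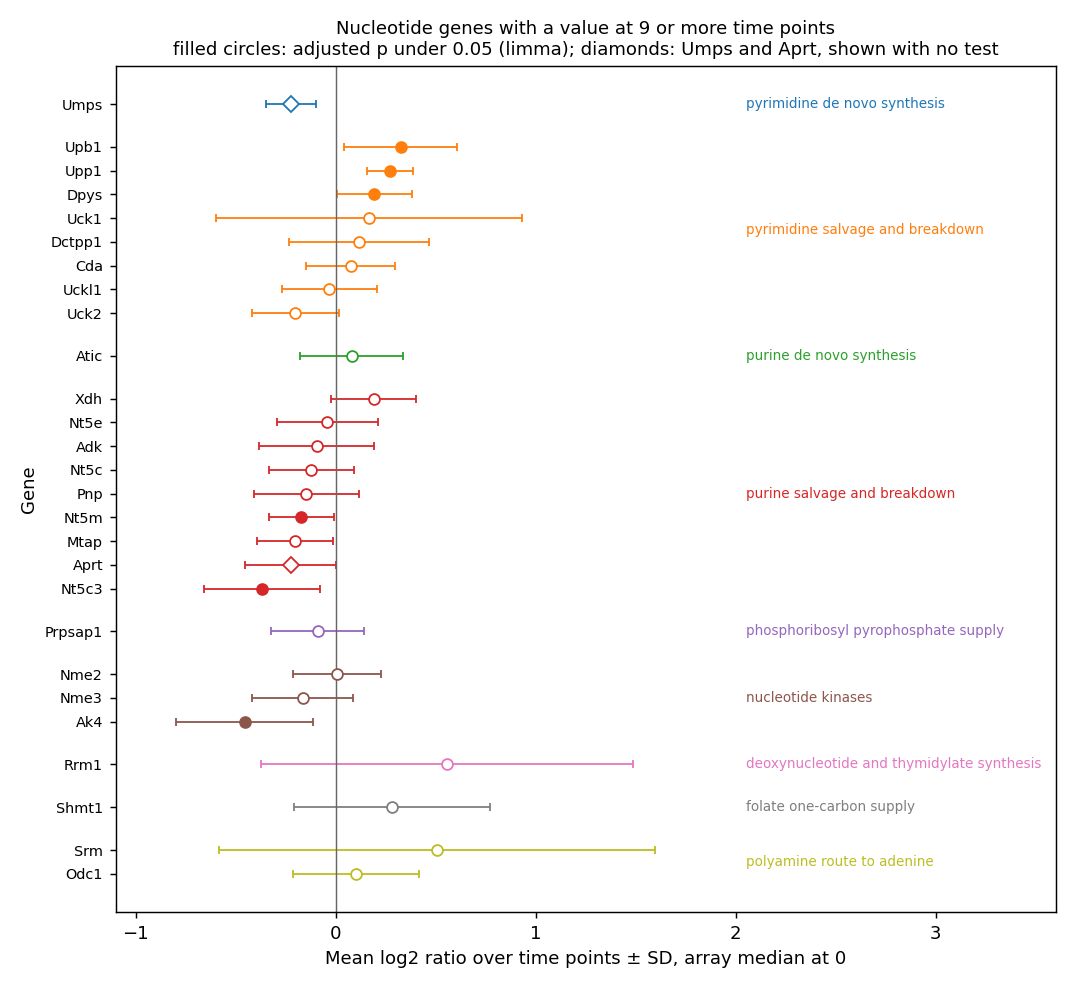
Mean log2 ratio over time points with bars of 1 SD for the 27 nucleotide genes measured at 9 or more time points, grouped by list. Filled circles passed limma at an adjusted p under 0.05, and diamonds mark Umps and Aprt, shown with no test. Genes of both signs occur, and the wide bars of Rrm1 and Srm come with their values at time point 5.

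Differences among the time points were tested with a limma F-test on genes measured on 16 or more arrays. Umps (15 arrays) and Aprt (9 arrays) were below this limit. Of 2953 genes 7.86% were called, and of 13 nucleotide genes in the test 1 was called. This was Dctpp1, the dCTP pyrophosphatase (adjusted p 0.0330), whose time-point means lay between -0.46 (time point 5) and 0.84 (time point 10). The value 0.84 came from the r array of time point 10 alone, the array that correlated with the others at -0.0016. In the set of 18 arrays Dctpp1 had 10 time points, was highest at time point 1 (0.485), and could not be tested.

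The genes whose time course was most like that of Umps were sought among 3030 genes with a value at all 11 time points. Atxn1, a polyglutamine protein of transcriptional repression, came first with a Pearson correlation of 0.88 over 11 time points. Oaz1, the antizyme of ornithine decarboxylase, had 0.84, Pigu, a subunit of the complex that attaches lipid anchors, 0.84, Plgrkt, a plasminogen receptor, 0.83, and the GTPase Rhoa 0.83. Oaz1 and Rhoa have probes at raised positions, and the other 3 had 0.82 to 0.85 in the set of 18 arrays. For Aprt 3256 genes had a value at its 9 time points. The unnamed probe 11882 came first with 0.89, followed by the kinase Alpk3 with 0.87, Pcnx4 with 0.85, the ubiquitin ligase subunit Rbx1 with 0.85 and the histone methyltransferase Kmt5a with 0.85. In the set of 18 arrays probe 11882 had 0.78, Pcnx4 0.91 and Rbx1 0.85. Alpk3 and Kmt5a have no probe at a raised position, but in that set they lacked values at time points of Aprt and had no correlation. Without time point 10 both had 0.72, against 0.91 for probe 11882, 0.82 for Pcnx4 and 0.79 for Rbx1. All points share arrays and centring with the gene they are set against, and with so many genes and few points such values are a description only. In the set of 18 arrays the closest gene was 1700034J05Rik for Umps (0.87) and Ndufa11 for Aprt (0.91), so the order of likeness changed with the arrays used.

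The arrays hold ratios, so levels of cell type markers could not be read from them. Of 14 hepatocyte markers 10 had a value, 6 were tested and 2 of these were called lower, against 9.05% of all genes. One was Alb, the albumin of liver, at -0.56 ± 0.21 (SD, n = 9, adjusted p 0.000759), and the other was Krt8, a keratin of simple epithelia, at -0.25 ± 0.19 (SD, n = 10, adjusted p 0.0148), whose mean as deposited was 0.02. The other tested hepatocyte markers had both signs. Apoe averaged -0.28 and Fgb -0.29, while Hnf4a averaged 0.07 and Apoa1 0.02. None of these passed (limma adjusted p 0.0645, 0.0525, 0.267 and 0.825 in that order). In the set of 18 arrays Apoe (adjusted p 0.0311) and Fgb (0.0338) passed. Of 5 macrophage markers 3 had a probe and 0 had a value. Of 5 markers each, 4 of endothelium, 5 of stellate cells or fibroblasts and 3 of bile duct had a value. Of those tested, 1 of 3 stellate cell or fibroblast markers was called higher by limma, against 13.6% of all genes. It was Col1a2, a collagen chain, at 0.19 ± 0.10 (SD, n = 11, adjusted p 0.00736). None of the 1 endothelial and 3 bile duct markers passed. Markers of the stellate cell or fibroblast list had both signs. Pdgfrb averaged -0.43 ± 0.52 (SD, n = 10), with a limma adjusted p of 0.0529, and of 0.0384 in the set of 18 arrays. Col1a1 averaged -0.50 ± 0.24 (SD, n = 5) and was too seldom measured for a test. Acta2 (0.05) and Des (0.44, at 2 time points) had positive means. The flasks held the Hepa1-6 line, so the names of these lists do not mean that such other cell types were present. A link of these markers to the ratios of Umps and Aprt was not tested.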

How the data were processed

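The series comprises 20 spotted arrays with 2 colours, and the deposited table holds 1 column per array. Its deposited values, log ratios of both channels, were read as log2; the sources used here do not state how the authors corrected background, normalized or blanked spots, and the dyes are given per the labels. Each array was centred on the median of its values. Probes of 1 symbol were averaged, after matching 14445 of 14719 listed probes to the RefSeq gene table of GRCm38.p6, and 0 symbols changed. The 2562 probes without a single symbol were kept apart, and those measured often enough count as genes in the tests and totals. Arrays of a time point were averaged.

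R 4.3.3 and limma 3.58.1 tested each gene's mean over time points against 0 (genes measured at 9 or more) and differences among time points (F-test, genes measured on 16 or more of 20 arrays). Both were checked on simulated data with independent noise of the same spread for every gene and shifts larger than the means of Umps and Aprt. The simulation held no raised spots or aberrant arrays, so it does not show how the tests behave with them. A gene with a Benjamini-Hochberg adjusted p below 0.05 was called. Time points were treated as independent, and whether arrays marked r are separate samples is unknown, so p-values may measure technical spread. Motifs and figures were made in Python 3.11.15.

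The members and the lists were chosen with earlier results of these data known. Named were Umps, Aprt, up to 4 called genes of a list or otherwise the 2 with the largest mean, and the 5 genes most like each member. Cad, Dhodh, Ctps1, Ctps2, Hprt and Dctpp1 were added for their roles or test. Uck2, Xdh, Mtap and the markers Alb, Krt8, Apoe, Fgb, Hnf4a, Apoa1, Col1a2, Pdgfrb, Col1a1, Acta2 and Des were added after their values were seen. Alternatives covered centring, arrays, time points, probes and filters on missing values. The number of arrays limits precision.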

Additional observations from a re-analysis of the deposited data

How the results depend on the processing

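Over the alternatives tried, the means of Umps and Aprt changed sign without centring only, to 0.03 for Umps (0.0336) and 0.00444 for Aprt, and were otherwise within 1 SD of the values given. Leaving out 1 array or time point gave -0.25 to -0.21 for Umps, -0.28 to -0.18 for Aprt and -0.05 to 0.10 for their difference (to 0.095), whose sign turned without time point 2 (-0.045) or 6 (-0.024); with each block of 540 probe numbers centred it was -0.0017.

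Over all genes, 430 were called lower and 646 higher. The count lower was 46 without centring (2849 higher), 250 with time points of 2 arrays only and 209 among genes measured at all 11. Leaving out 1 array or time point gave 245 to 536 lower, with 264 without the first array of time point 10 and 276, 266, 245 and 251 without time points 2, 3, 4 and 9, and 419 (without the first array of time point 10) to 842 higher. Among the other nucleotide genes (3 lower, 3 higher), 0 were lower and 11 higher without centring, and 5 were lower with blocks of 540 centred. Omissions gave 1 to 4 lower, with 1 without the first array of time point 6 or 10 or without time point 1, 2 or 4, and 1 to 4 higher, with 1 without the first array of time point 10.

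The F-test called 232 genes, 803 in the set of 18 arrays, 931 with their raised positions kept, 102 with time points of 2 arrays only and 60 among genes on all 20 arrays. Omissions gave 53 (without the first array of time point 6) to 1509 (without the first array of time point 10); it was 788 without the r array of time point 10, 734 without that time point, 101 without time point 5, 103 without time point 7 and 131 to 154 without either array of time points 2, 4 or 7, the first of time point 9, or time points 3 or 4. With the arrays marked r as a replicate block it called 170; nothing in the labels pairs arrays of different time points by that mark. The cause of these shifts was not tested. Umps and Aprt were below the limit of this test. Signal over background was not used here, so the depth behind a value is unknown.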
